A study of Mus musculus with 32 samples.

Results

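The striatal signature of the R6/2 transgene in mice that received no drug was read from 14 of the 32 arrays of the series, the 7 titled as R6/2 on vehicle and the 7 titled as wild type on vehicle. R6/2 mice carry a fragment of the human huntingtin gene with an expanded repeat and are a fast-progressing model of Huntington's disease, and the fragment is expressed in addition to both mouse copies of the gene. All mice were male, 12 weeks old and on a mixed CBA and C57Bl/6 background, and vehicle was given by oral gavage. The series' design text gives 4 h for the treatment, and the labels say that dosing was in the afternoon, with dissection usually as the light phase closed. The other 18 arrays, 8 of R6/2 and 10 of wild-type mice, came from animals given NVP-HSP990, an inhibitor of the chaperone HSP90, at 12 mg/kg. Every label names the striatum, whose tissue was homogenised whole. Each array was taken as 1 mouse because the labels name no animals, and p-values therefore rest only on how far these samples vary. In whole tissue, fewer cells of a type and less RNA per cell cannot be told apart.

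The striatum is built mostly of spiny projection neurons, which release GABA and receive glutamate from the cortex and dopamine from the midbrain. Those of the indirect pathway carry the dopamine receptor Drd2 and the peptide enkephalin, and those of the direct pathway carry Drd1, dynorphin and substance P; both read dopamine through cyclic AMP, protein kinase A and DARPP-32. These neurons are the cells most exposed in Huntington's disease, and loss of their characteristic transcripts is a known feature of R6/2 mice.

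All values are deposited log2 levels of the probe set with the highest mean for each of 18193 genes, and a level of 1 probe set cannot be set against that of another. Differences are R6/2 minus wild type on the log2 scale with the standard error of the limma fit (n = 7 and 7 arrays), and rose and fell are used of genes with a Benjamini-Hochberg adjusted p under 0.05 over all 18193 genes. Array medians of the 14 arrays ran from 5.74 to 5.78. Levels of Penk (from 13.14 to 13.56 (median 13.33) in wild type) and Ppp1r1b (from 11.81 to 12.4 (median 12.2)), which define spiny neurons, were far above the median of all probe sets (5.76). Markers of cortical and hippocampal projection neurons had an array mean between 6.44 and 8.18 in R6/2 and between 6.50 and 7.93 in wild type. Markers of choroid plexus and ependyma ranged between 5.27 and 6.59 in R6/2 and between 5.54 and 7.73 in wild type, so arrays of both groups differed widely in these markers. The 3' bias of the control probe sets, a measure of RNA integrity, was 1.15 ± 0.446 in R6/2 and 1.42 ± 0.593 in wild type (SD, exact permutation test, two-sided, p = 0.361). Mouse Htt did not pass (-0.08 ± 0.14, adjusted p = 0.753 by limma), with levels from 8.07 to 9.01 (median 8.32) in R6/2 and from 7.84 to 8.88 (median 8.56) in wild type; it does not check the transgene, which carries only the start of the gene.

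R6/2 replicate 7 and wild-type replicate 4 stood apart from their groups in more named genes than any other vehicle array, though other arrays came close to them in single measures. R6/2 replicate 7 was the R6/2 array nearest to wild type in 77 of the 170 genes that fell at least 2-fold and in 14 of the 24 that rose at least 2-fold, and it had the highest mean of cortical and hippocampal markers (8.18). Wild-type replicate 4 was the wild-type array nearest to R6/2 in 57 of the 170 falls, with a cortical and hippocampal mean of 7.93, a choroid plexus and ependyma mean of 7.73 and the highest mean of glucocorticoid-responsive genes (10.09). Wild-type replicate 7 was nearest to R6/2 in 52 of the 170 falls, with a choroid plexus and ependyma mean of 7.66, and R6/2 replicate 4 had a cortical and hippocampal mean of 8.01 and was farthest from wild type in 72 of the falls. Without R6/2 replicate 7 and wild-type replicate 4, 2429 genes rose and 1872 fell; 2025 of the 2160 rises (93.8%) and 1592 of the 1746 falls (91.2%) found with all arrays were called again and none in the opposite direction. The part of neighbouring tissue in the differences between arrays was not tested. This removal was chosen after the data were seen; it ended the call of 11 of the 231 called genes chosen by the naming rule, given beside each, and moved some list counts, given after the last list.

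On vehicle 3906 of 18193 genes differed between R6/2 and wild type (21.5%), with 2160 higher (11.9%) and 1746 lower (9.60%) in R6/2. Rises were more frequent but small, and falls reached further. The median difference was 0.36 among rises and -0.46 among falls, and 251 rises against 625 falls reached 1.5-fold. Falls of at least 2-fold numbered 170 (0.934% of genes) and rises of that size 24 (0.132%). All 11 called differences of at least 4-fold were falls. The rises of at least 2-fold numbered 38 without the pair of arrays that stood apart, and the falls 212. Values of the 7 R6/2 and the 7 wild-type arrays did not overlap for 710 genes (3.9%), with R6/2 lower for 431 (2.37%, 429 of them called) and higher for 279 (1.53%, 278 of them called). By level, the 2-fold falls numbered 3, 37, 51 and 79 from the lowest to the highest of 4 equal bins of mean level, and the 2-fold rises 4, 11, 7 and 2.

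**Figure D1:**
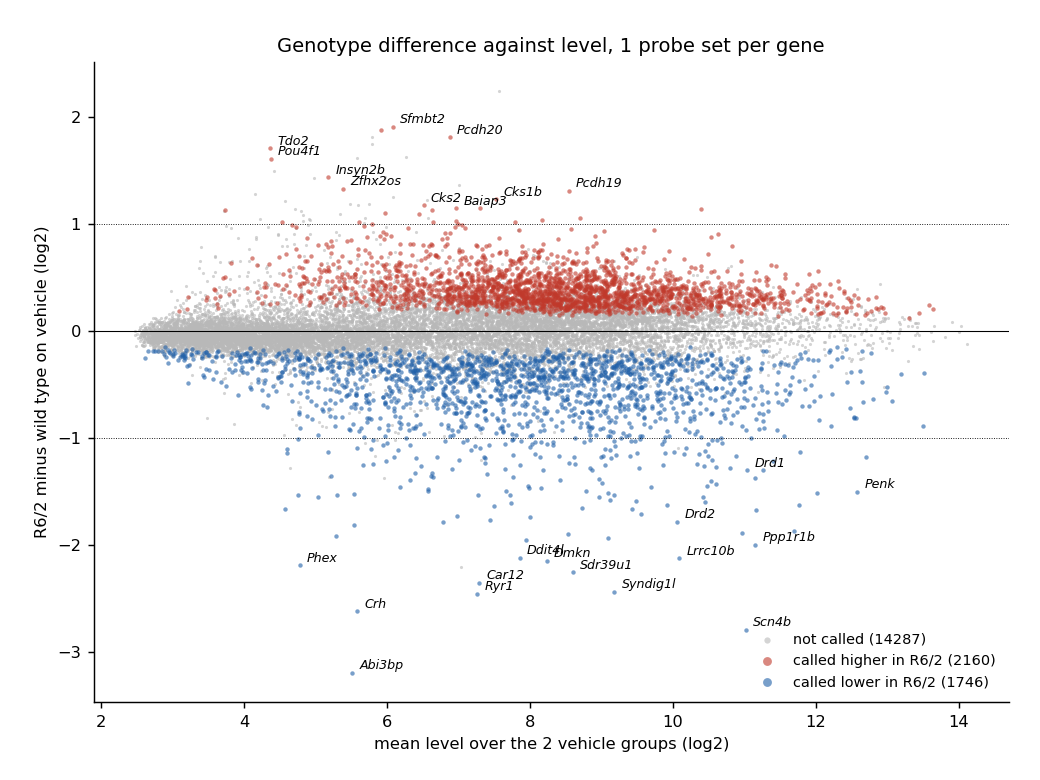
Difference between R6/2 and wild type on vehicle (log2, vertical) against the mean level over both vehicle groups (log2, horizontal) for 18193 genes, 1 point per gene. Blue points are the 1746 genes called lower and red points the 2160 called higher, dotted lines mark 2-fold, and the blue points reach further from 0 (to -3.19 for Abi3bp) than the red ones (to 1.90 for Sfmbt2).

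The gene with the largest fall was Abi3bp, which encodes a protein of the extracellular matrix, with levels from 3.49 to 4.87 (median 3.82) in R6/2 and from 6.37 to 8.02 (median 7.13) in wild type. The groups were far apart (-3.19 ± 0.33, a 9.14-fold fall, limma adjusted p = 1.95e-08), and R6/2 replicate 7 was the highest R6/2 array. Scn4b, the auxiliary beta-4 subunit of neuronal sodium channels, ran from 8.61 to 11.33 (median 9.43) in R6/2 and from 12.16 to 12.74 (median 12.46) in wild type, a fall of 2.79 ± 0.26. Its wild-type arrays were tight while R6/2 replicates 5 and 7 stood above the other 5 R6/2 arrays. Ryr1, a ryanodine receptor that releases calcium from the endoplasmic reticulum, ran from 5.4 to 7.63 (median 5.69) in R6/2 and from 7.96 to 8.9 (median 8.59) in wild type and fell by 2.45 ± 0.23. Syndig1l, which encodes a membrane protein related to a synapse differentiation factor, fell by 2.44 ± 0.33, from a wild-type range of 9.6 to 11.18 (median 10.49) to an R6/2 range of 6.32 to 9.16 (median 7.97). None of these 4 genes had overlapping groups. The carbonic anhydrase gene Car12 fell by 2.35 ± 0.28, the phosphate-regulating endopeptidase gene Phex by 2.19 ± 0.25, and Ddit4l, which encodes an inhibitor of mTOR signalling, by 2.12 ± 0.2. Wnt8b, a secreted Wnt ligand, fell by 1.91 ± 0.27, and Arg2, the mitochondrial arginase, by 1.79 ± 0.22. Sdr39u1 (fell by 2.25 ± 0.2) and Dmkn (fell by 2.15 ± 0.25) also fell more than 4-fold. For Phex and Wnt8b the groups overlapped through a single R6/2 array, replicate 7.

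**Figure D2:**
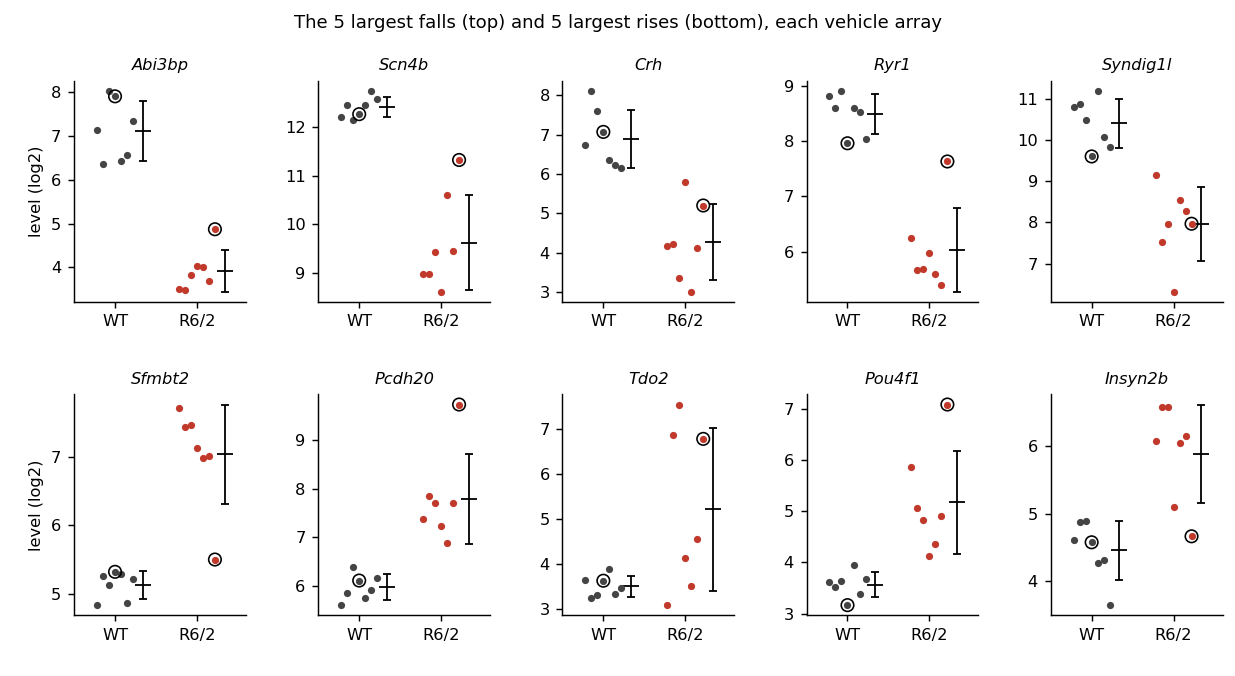
Levels (log2, vertical) of the 5 genes with the largest falls, top row, and the 5 with the largest rises, bottom row, in each of the 7 wild-type and 7 R6/2 vehicle arrays. Points are single arrays, bars are the mean and SD, and circles mark wild-type replicate 4 and R6/2 replicate 7; the circled R6/2 array is the highest for Abi3bp, Scn4b and Ryr1 and lies near the wild-type points for Sfmbt2 and Insyn2b, while Tdo2 splits the R6/2 arrays.

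Genes that mark either pathway of spiny neurons fell in part, and the listed genes of shared signalling all fell. Of 8 measured genes that mark the indirect pathway 4 fell and none rose (median difference -0.84), of 11 of the direct pathway 5 fell and 1 rose (median -0.24), and all 27 measured genes of signalling shared by both fell (median -1.26), against 9.60% falling over all genes and a median of -0.01. The shared list was drawn up with these values known, so its count describes the genes and is no test of them. Its array mean ran between 9.53 and 10.55 in R6/2 and between 11.26 and 11.59 in wild type, and for 21 of the 27 genes the groups did not overlap.

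Within the indirect pathway, Drd2 ran from 8.23 to 10.1 (median 9.17) in R6/2 and from 10.23 to 11.24 (median 11.07) in wild type. Every R6/2 array was below every wild-type array (-1.78 ± 0.27, adjusted p = 1.06e-05 by limma), although wild-type replicate 4 lay well below its group. Gpr6, an orphan receptor that raises cyclic AMP, fell by 1.55 ± 0.23 with levels from 8.34 to 10.43 (median 9.86) in R6/2 and from 10.83 to 11.41 (median 11.26) in wild type, and Penk, the enkephalin precursor, by 1.5 ± 0.16 from 13.14 to 13.56 (median 13.33) to 10.92 to 12.51 (median 11.9). Cd4, better known as a co-receptor of T cells, fell by 1.17 ± 0.15. For all 4 the groups did not overlap. The other 4 members did not pass: the transcription factor gene Six3 (-0.52 ± 0.23), the delta opioid receptor gene Oprd1 (-0.19 ± 0.11), the kainate receptor gene Grik3 (-0.18 ± 0.11) and Ttc12 (-0.1 ± 0.1). Six3 levels ran from 8.43 to 10.3 (median 9.65) in R6/2 and from 9.41 to 10.28 (median 10.06) in wild type, and R6/2 replicates 4 and 7 were the low arrays.

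On the direct side, Drd1 ran from 9.44 to 10.91 (median 10.43) in R6/2 and from 11.39 to 11.97 (median 11.74) in wild type and fell by 1.3 ± 0.16 (adjusted p = 5.71e-07 by limma). Pdyn, the dynorphin precursor, fell by 1.46 ± 0.16 with levels from 6.4 to 7.81 (median 7.55) in R6/2 and from 8.62 to 9.14 (median 8.96) in wild type. Neither gene had an R6/2 array within the wild-type range, and R6/2 replicate 4 was the lowest in both. Slc35d3, a nucleotide sugar transporter that helps Drd1 reach the cell surface, fell by 0.89 ± 0.24 with overlapping groups, Chrm4, the muscarinic M4 receptor, by 0.49 ± 0.16, and Sfxn1, a mitochondrial serine transporter, by 0.24 ± 0.08 without overlap. Eya1, a developmental transcriptional co-activator, rose by 0.37 ± 0.12. Tac1, the substance P precursor, did not pass (-0.37 ± 0.15, adjusted p = 0.0843 by limma), with levels from 11.1 to 12.24 (median 12.02) in R6/2 and from 11.8 to 12.56 (median 12.24) in wild type. The transcription factor genes of the direct pathway did not pass either: Isl1 (-0.1 ± 0.24), Ebf1 (-0.02 ± 0.23) and Zfp521 (-0.13 ± 0.16). Nor did Rspo2 (0.13 ± 0.51), which encodes a secreted activator of Wnt signalling. Of the transcription factor genes Six3, Isl1, Ebf1 and Zfp521 none passed, and among receptor and peptide genes Drd2, Gpr6, Penk, Drd1, Pdyn and Chrm4 passed while Oprd1, Grik3 and Tac1 did not. Levels of Chrm4 (3.59 to 5.24), Oprd1 (4.05 to 4.62) and Ttc12 (5.08 to 5.68) were below the median of all probe sets (5.76) in every vehicle array, where differences are compressed. The Chrm4 call was lost in 3 of 25 other settings, among them the vehicle arrays alone.

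**Figure D3:**
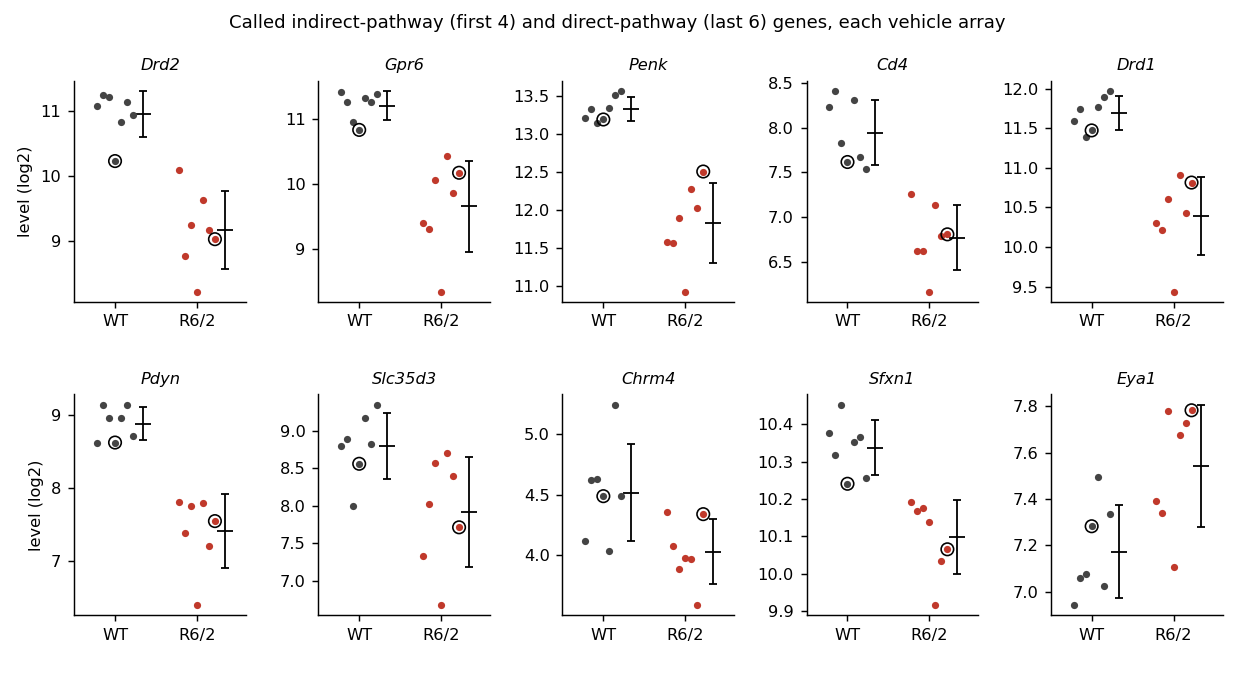
Levels (log2, vertical) of the called genes of the indirect pathway (Drd2, Gpr6, Penk, Cd4) and the direct pathway (Drd1, Pdyn, Slc35d3, Chrm4, Sfxn1, Eya1) in each of the 7 wild-type and 7 R6/2 vehicle arrays, with the mean and SD as bars. Circles mark wild-type replicate 4 and R6/2 replicate 7; the groups are separate for Drd2, Gpr6, Penk, Cd4, Drd1, Pdyn and Sfxn1 and overlap for Slc35d3, Chrm4 and Eya1, which alone was higher in R6/2.

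Among the genes of shared signalling, Ppp1r1b, which encodes DARPP-32, the switch between dopamine and protein phosphatase 1, ran from 8.76 to 10.97 (median 10.36) in R6/2 and from 11.81 to 12.4 (median 12.2) in wild type and fell by 2.0 ± 0.23. Rgs9, which speeds the shut-off of dopamine receptor signalling, ran from 9.0 to 10.6 (median 10.06) in R6/2 and from 11.37 to 12.16 (median 11.97) in wild type (fell by 1.88 ± 0.19). Neither gene had an array within the range of the other group. Rasd2, also called Rhes, a small GTPase concentrated in striatum that binds mutant huntingtin, fell by 1.86 ± 0.22 from 12.32 to 13.08 (median 12.62) to 9.73 to 11.5 (median 10.92). Rasgrp2, a calcium-regulated exchange factor for Rap, fell by 1.93 ± 0.24, the leucine-rich repeat gene Lrrc10b by 2.12 ± 0.22, and Arpp19 and Arpp21, cyclic AMP-regulated phosphoproteins, by 1.63 ± 0.14 and 1.18 ± 0.12. Ptpn5, the striatum-enriched tyrosine phosphatase STEP, fell by 1.27 ± 0.13, and Kcnip2, a partner of A-type potassium channels, by 1.26 ± 0.13. The smallest falls of the list were in Ppp3ca (-0.53), a calcineurin subunit, and Gnal (-0.59), the G protein alpha subunit through which dopamine raises cyclic AMP in striatum. The 27 falls of the list were also called on HSP990, in arrays of other mice, with a median difference of -1.27. Of all genes 11% were lower there.

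More genes fell than rose among the enzymes that make, break and answer to cyclic AMP, though many of them were not called. Of 18 measured cyclic nucleotide phosphodiesterase genes 9 fell and 1 rose (median -0.32), led by Pde1b (-1.52 ± 0.15), which calcium activates, and Pde10a (-1.13 ± 0.22), the main phosphodiesterase of spiny neurons. Pde1b ran from 10.55 to 11.92 (median 11.28) in R6/2 and from 12.45 to 12.98 (median 12.81) in wild type, with no overlap. Pde1c (-0.91 ± 0.14), Pde7b (-0.91 ± 0.15), Pde2a (-0.81 ± 0.09) and Pde8b (-0.44 ± 0.08) also fell. Pde4d was the only phosphodiesterase gene that rose (0.46 ± 0.07), while its relatives Pde4a (-0.54) and Pde4b (-0.31) fell; 7 of the list fell without the pair of arrays that stood apart. Among 11 cyclase genes 4 fell and none rose (median -0.13): Adcy5, the main adenylyl cyclase of striatum (-1.67 ± 0.15), Adcy9 (-0.53 ± 0.12), Adcy3 (-0.29 ± 0.07) and Gucy1b1, a subunit of the nitric oxide receptor (-0.48 ± 0.12). For Adcy5 another probe set was called in the opposite direction, and the Adcy3 and Gucy1b1 calls were lost when the probe sets of each gene were averaged. Of 19 genes for protein kinase A, its anchors and the phosphatases it controls 7 fell and 2 rose (median 0.00). The inhibitor gene Ppp1r1a (-1.18 ± 0.15) and the anchor gene Akap5 (-0.87 ± 0.12) fell. The regulatory subunit genes Prkar2a (0.51 ± 0.12) and Prkar1a (0.49 ± 0.18) rose. Falls made up 50% of the phosphodiesterase, 36.4% of the cyclase and 36.8% of the kinase list, against 9.60% of all genes. Rises made up 5.56% of the phosphodiesterase and 10.5% of the kinase list, against 11.9%.

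RGS proteins shorten G protein signals. Of 19 measured members 9 fell (47.4% against 9.60% of all genes) and 1 rose (5.26% against 11.9%), with a median of -0.52. Besides Rgs9, Rgs11 (-1.64 ± 0.16), Rgs4 (-1.4 ± 0.18), Rgs14 (-1.11 ± 0.18) and Rgs20 (-0.99 ± 0.14) fell, as did Rgs7bp (-0.84 ± 0.09), which anchors RGS proteins at the membrane. Rgs19 rose by 1.02 ± 0.12, with levels from 7.92 to 8.54 (median 8.39) in R6/2 and from 6.97 to 7.52 (median 7.32) in wild type and no overlap. Of 23 monoamine, muscarinic, opioid and cannabinoid receptor genes 11 fell (47.8% against 9.60% of all genes) and none rose (median -0.49). Hrh3, the histamine H3 receptor, ran from 7.65 to 8.31 (median 7.79) in R6/2 and from 9.19 to 9.8 (median 9.66) in wild type and fell by 1.66 ± 0.14. Cnr1, the cannabinoid CB1 receptor, fell by 1.45 ± 0.26, and Oprk1, the kappa opioid receptor that dynorphin activates, by 1.36 ± 0.15. R6/2 and wild-type arrays did not overlap for Hrh3 and Oprk1. Adra2c, an adrenergic receptor (-1.05 ± 0.11), and the serotonin receptor genes Htr1b (-1.29 ± 0.22), Htr1d (-1.12 ± 0.15) and Htr6 (-0.67 ± 0.13) fell too, with Chrm1, the muscarinic M1 receptor (-0.8 ± 0.14).

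Neuropeptide genes fell in 8 of 18 cases (44.4% against 9.60% of all genes) and rose in none (median -0.54). The promoters of Sst and Cartpt are shown because both genes fell and both hold the palindromic cyclic AMP response element TGACGTCA, in capitals, to which CREB binds, in the 250 bases before the RefSeq start (GRCm38.p6; Sst chr16:23890845-23891094, minus strand; Cartpt chr13:99900684-99900933, minus strand; each written 5′ to 3′ toward the start).
Sst: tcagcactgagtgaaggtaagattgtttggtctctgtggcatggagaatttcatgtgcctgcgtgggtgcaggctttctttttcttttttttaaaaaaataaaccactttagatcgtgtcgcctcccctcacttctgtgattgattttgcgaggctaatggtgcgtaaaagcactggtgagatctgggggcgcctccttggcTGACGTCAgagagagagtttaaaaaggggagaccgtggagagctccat
Cartpt: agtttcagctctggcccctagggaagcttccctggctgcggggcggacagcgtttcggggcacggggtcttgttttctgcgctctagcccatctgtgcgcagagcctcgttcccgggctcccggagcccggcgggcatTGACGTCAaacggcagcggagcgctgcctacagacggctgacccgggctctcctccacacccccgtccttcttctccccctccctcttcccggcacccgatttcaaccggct
The element began 48 bases before the start in Sst and 112 bases before it in Cartpt. Among 5 of the 8 peptide genes that fell with a window in the RefSeq table, these were the only 2 with the element. Of 18109 windows of all measured genes 2.12% held it on either strand, of 1836 windows of genes that fell 1.91% and of 2179 windows of genes that rose 3.44%. A match describes the letters and not a bound site.

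Sst, the somatostatin precursor of a class of interneurons, ran from 10.11 to 10.5 (median 10.39) in R6/2 and from 10.52 to 11.14 (median 11.04) in wild type and fell by 0.54 ± 0.12 without overlap. Cartpt, the precursor of the peptide CART, ran from 4.93 to 6.24 (median 5.84) in R6/2 and from 5.49 to 8.34 (median 6.85) in wild type and fell by 1.39 ± 0.31, with overlapping groups. Crh, corticotropin-releasing hormone, ran from 3.01 to 5.8 (median 4.16) in R6/2 and from 6.15 to 8.1 (median 6.73) in wild type; it had the largest peptide fall (-2.62 ± 0.51, adjusted p = 0.000276 by limma) with separate groups. Npy, found in the same interneurons as Sst, fell by 0.94 ± 0.11 without overlap, and Trh (-0.54 ± 0.1) and Vgf (-0.55 ± 0.14) fell by less. On HSP990 the difference of Crh was -0.84 and that of Cartpt -0.18; for neither did the difference between the treatments pass (limma adjusted p of the interaction 0.252 and 0.199).

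Some subunits of the receptors for the main transmitters fell. Of 21 glutamate receptor genes 9 fell and none rose (median -0.18), and of 12 GABA receptor genes 4 fell and 1 rose (median -0.03). Falls made up 42.9% and 33.3% of these lists, against 9.60% of all genes. The GABA receptor rise made up 8.33%, against 11.9%. Grm4, a presynaptic metabotropic receptor, fell by 1.29 ± 0.16 and Grm3 by 0.79 ± 0.09, both without overlap, while Grm5, the postsynaptic receptor of spiny neurons, fell by 0.5 ± 0.1. Among ion channel receptors Grik2 (-0.78 ± 0.11), Grin2c (-0.64 ± 0.11) and Grid1 (-0.42 ± 0.08) fell. Gabrd, the delta subunit of extrasynaptic GABA-A receptors, ran from 8.11 to 9.21 (median 8.78) in R6/2 and from 9.62 to 10.55 (median 10.35) in wild type and fell by 1.59 ± 0.16. It showed no overlap, and wild-type replicate 4 was the lowest wild-type array by a wide margin. Gabra4 (-0.46 ± 0.12) and Gabrg3 (-0.35 ± 0.08) fell by less, and Gabbr1 (-0.2 ± 0.07, adjusted p = 0.0457 by limma) was close to the threshold. Gabra5, a subunit abundant in hippocampus, rose by 0.74 ± 0.25, but R6/2 replicate 7 was its highest array at 10.0, against a next highest R6/2 value of 8.31; the difference without the pair of arrays was 0.54 and without R6/2 replicate 7 alone its call was lost.

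Among potassium channel and calcium handling genes falls were called and no rises, while sodium channel genes were called in both directions. Of 47 potassium channel genes 19 fell and none rose (median -0.24). Of 32 calcium channel, release channel and pump genes 16 fell and none rose (median -0.31). Of 9 sodium channel genes 2 fell and 2 rose (median 0.04). Falls made up 40.4%, 50% and 22.2% of these lists, against 9.60% of all genes. The sodium channel rises made up 22.2%, against 11.9%. Kcnip3, a calcium sensor that tunes A-type channels (-1.29 ± 0.14), and Kcnq5 (-0.81 ± 0.09), Kcnk2 (-0.81 ± 0.12), Kcnh1 (-0.72 ± 0.11) and Kcnt1 (-0.66 ± 0.08) fell, as did Kcnj4 (-1.06 ± 0.28), one of the inward rectifiers that hold spiny neurons at rest. Kcnip3 ran from 6.63 to 7.25 (median 7.07) in R6/2 and from 7.61 to 8.64 (median 8.32) in wild type. Its groups did not overlap. In the calcium list, Cacng4 (-1.28 ± 0.16), which also serves AMPA receptors, Cacna2d3 (-1.0 ± 0.14), the plasma membrane pump gene Atp2b1 (-0.8 ± 0.13) and Ryr3 (-0.7 ± 0.11) fell besides Ryr1. Scn9a, a sodium channel best known from pain neurons, rose by 1.01 ± 0.18 with levels from 5.12 to 6.7 (median 6.29) in R6/2 and from 4.69 to 5.57 (median 5.08) in wild type, which overlapped. Scn2b fell by 0.57 ± 0.11, and Nalcn, the sodium leak channel, rose by 0.21 ± 0.06.

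At the synapse more postsynaptic than presynaptic genes of the lists were called, though the difference between the lists was not tested. Of 25 postsynaptic scaffold and spine genes 14 fell and none rose (median -0.45). Of 28 vesicle and release genes 7 fell and 1 rose (median -0.13). Falls made up 56% and 25% of these lists, against 9.60% of all genes. The presynaptic rise made up 3.57%, against 11.9%. The scaffold genes Dlgap3 (-1.42 ± 0.22) and Shank3 (-1.38 ± 0.17), which together build the density of cortical inputs, and Actn2 (-1.49 ± 0.19), which ties receptors to actin, fell without overlap. Shank3 ran from 7.9 to 8.68 (median 8.21) in R6/2 and from 9.15 to 10.09 (median 9.56) in wild type. Homer1 (-0.71 ± 0.11) and Ppp1r9a (-0.61 ± 0.07) fell as well, and Itpka, a kinase of spines, fell by 1.06 ± 0.18 although R6/2 replicate 7 reached 10.82. On the presynaptic side Syt2 (-1.18 ± 0.15), a calcium sensor of release, Rph3a (-1.11 ± 0.2), Cplx2 (-0.72 ± 0.19), Rab3b (-0.62 ± 0.16), Bsn (-0.65 ± 0.18) and Doc2b (-0.6 ± 0.18) fell, and Sv2a rose (0.34 ± 0.12). Gsg1l, an auxiliary subunit of AMPA receptors outside these lists, fell by 1.89 ± 0.16.

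Genes induced by neuronal activity were lower in R6/2: 12 of 30 fell (40% against 9.60% of all genes) and none rose (median -0.31). Egr2, an immediate early transcription factor, ran from 3.76 to 6.85 (median 4.43) in R6/2 and from 5.18 to 7.41 (median 6.49) in wild type and fell by 1.81 ± 0.34; 6 R6/2 arrays lay below every wild-type array and R6/2 replicate 7, at 6.85, lay among them. Without the pair of arrays that stood apart its difference was -2.39. Nptx2, a secreted pentraxin that gathers AMPA receptors (-1.33 ± 0.24), Npas4 (-0.96 ± 0.32), Egr3 (-0.86 ± 0.13), Ier5 (-0.65 ± 0.12) and Dusp1, a phosphatase of MAP kinases (-0.55 ± 0.1), fell too. Egr1 fell by 0.57 ± 0.13. Of the glucocorticoid-responsive list, part of which moves with handling stress, 4 of 20 fell (20% against 9.60% of all genes) and none rose (median -0.32). They were Sgk1 (-0.8 ± 0.21), Klf9 (-0.57 ± 0.08), Mfsd2a (-0.31 ± 0.11) and Per1, which is also a clock gene; the call of Mfsd2a was lost without the pair of arrays that stood apart (limma adjusted p = 0.106). Array means of that list ran between 8.31 and 9.30 in R6/2 and between 8.77 and 10.09 in wild type, and its part in the other differences was not tested.

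Genes of the circadian clock and its output fell in 10 of 20 cases and rose in 1 (median -0.44). Falls made up 50% and the rise 5%, against 9.60% and 11.9% of all genes. The promoters of Ciart and Per1 are shown because both genes fell and hold the E-box CACGTG, in capitals, to which the CLOCK and BMAL1 pair binds, in the 250 bases before the RefSeq start (GRCm38.p6; Ciart chr3:95882229-95882478, minus strand; Per1 chr11:69098699-69098948, plus strand; each written 5′ to 3′ toward the start).
Ciart: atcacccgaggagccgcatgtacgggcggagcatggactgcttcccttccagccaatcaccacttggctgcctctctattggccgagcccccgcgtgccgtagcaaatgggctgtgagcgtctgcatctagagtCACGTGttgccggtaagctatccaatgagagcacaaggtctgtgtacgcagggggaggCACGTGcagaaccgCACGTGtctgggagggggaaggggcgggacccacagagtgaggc
Per1: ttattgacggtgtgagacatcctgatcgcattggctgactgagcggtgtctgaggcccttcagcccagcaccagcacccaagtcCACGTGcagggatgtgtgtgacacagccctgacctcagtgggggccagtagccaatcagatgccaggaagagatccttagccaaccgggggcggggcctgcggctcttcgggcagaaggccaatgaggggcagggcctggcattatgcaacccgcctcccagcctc
The 3 E-boxes of Ciart began 116, 58 and 44 bases before the start, and that of Per1 166 bases before it. Of 8 clock genes that fell with a window, 3 held an E-box, the third being Tef. Over all measured genes 7.38% of windows held one, over genes that fell 7.79% and over genes that rose 7.99%. The motif reads the same on both strands.

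Ciart, a repressor within the clock, ran from 6.01 to 7.09 (median 6.45) in R6/2 and from 7.65 to 8.42 (median 8.09) in wild type and fell by 1.54 ± 0.14. Dbp and Hlf, output factors of the PAR bZIP family, fell by 1.37 ± 0.15 and 1.17 ± 0.16, and their relative Tef by 0.61 ± 0.08. Npas2, a partner of BMAL1 that is abundant in forebrain, ran from 7.58 to 8.52 (median 7.99) in R6/2 and from 8.88 to 9.39 (median 9.28) in wild type and fell by 1.18 ± 0.1. The groups did not overlap for Ciart, Dbp, Hlf, Tef and Npas2. Nr1d1, which encodes the repressor REV-ERB alpha, fell by 0.71 ± 0.1, Per1 by 0.77 ± 0.12, Per2 by 0.62 ± 0.2 and Per3 by 0.72 ± 0.2. Nfil3, which opposes the PAR bZIP factors, was the 1 member that rose (0.62 ± 0.12). All arrays come from about 1 time of day by the labels, so phase and level of the clock cannot be told apart here. On HSP990 10 of the 20 were lower in R6/2 and 2 higher, against 11% and 22.6% of all genes there.

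Transcription factor genes of striatal neurons fell in part. Of 23 measured, 6 fell (26.1% against 9.60% of all genes) and 2 rose (8.70% against 11.9%). The median was -0.17, and none fell 2-fold. Rxrg (-0.91 ± 0.19) and Rarb (-0.77 ± 0.2), retinoid receptors of striatum, Id4 (-0.77 ± 0.14), Foxp1 (-0.64 ± 0.15) and Bcl11b (-0.59 ± 0.12), a master factor of spiny neurons, fell. Bcl11b ran from 10.72 to 11.69 (median 11.42) in R6/2 and from 11.72 to 12.17 (median 11.85) in wild type, without overlap. Ikzf2 (0.46 ± 0.13) and Peg3 (0.25 ± 0.09) rose.

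The largest rises among the named genes were in Sfmbt2, Pcdh20, Tdo2 and Pou4f1. Sfmbt2, a Polycomb group protein, ran from 5.5 to 7.71 (median 7.13) in R6/2 and from 4.83 to 5.32 (median 5.22) in wild type and rose by 1.9 ± 0.22 (3.74-fold, adjusted p = 1.1e-07 by limma). The other 6 R6/2 arrays were at 6.98 or above while R6/2 replicate 7 was at 5.50, just above the wild-type range; without the pair of arrays the difference was 2.19. Pcdh20, an adhesion protein of the protocadherin family, ran from 6.88 to 9.73 (median 7.7) in R6/2 and from 5.6 to 6.39 (median 5.92) in wild type and rose by 1.81 ± 0.26, with R6/2 replicate 7 as the highest array (1.51 without the pair). Pou4f1, a POU homeodomain factor of sensory and habenular neurons, rose by 1.61 ± 0.29 with levels from 4.12 to 7.08 (median 4.91) in R6/2 and from 3.17 to 3.95 (median 3.63) in wild type; the highest was again replicate 7, and the difference without the pair was 1.22. Of 46 homeobox and other developmental factors measured, 4 rose and none fell (median -0.01): Pou4f1, Irx5 (0.98 ± 0.2), Onecut1 (0.77 ± 0.11) and Pax6 (0.61 ± 0.16). That share (8.70%) is below the 11.9% of all genes that rose, but the list lies low, with means of the vehicle arrays between 4.31 and 4.65. From the lowest to the highest of 4 equal bins of mean level, 0.923%, 7.85%, 17.8% and 20.9% of the genes in the bin rose. The call of Pax6 was lost when the probe sets of each gene were averaged (limma adjusted p = 0.275). Tdo2, which starts the breakdown of tryptophan, rose by 1.7 ± 0.63 with adjusted p = 0.0498 by limma. Its R6/2 arrays were uneven, at 6.77, 6.86 and 7.54 in 3 and between 3.09 and 4.57 in 4, against 3.26 to 3.89 in wild type, and the call was lost in 17 of 25 other settings, among them that without the pair of arrays that stood apart (limma adjusted p = 0.12).

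Insyn2b, a protein of inhibitory synapses (1.43 ± 0.22), the antisense RNA gene Zfhx2os (1.33 ± 0.18) and Pcdh19 (1.31 ± 0.18) followed. Pcdh19 ran from 8.75 to 9.56 (median 9.13) in R6/2 and from 7.58 to 8.42 (median 7.86) in wild type, without overlap. Cks1b and Cks2, regulatory subunits of cyclin-dependent kinases, rose by 1.23 ± 0.17 and 1.17 ± 0.17. Cks1b ran from 7.02 to 8.75 (median 8.22) in R6/2 and from 6.51 to 7.13 (median 7.07) in wild type: the overlap came from R6/2 replicate 7 alone, at 7.02. Smc2, a condensin subunit, rose by 1.03 ± 0.11 without overlap, and Atad2b, a bromodomain protein, by 1.06 ± 0.1. Gprasp2 (1.14 ± 0.14), a sorting protein of G protein-coupled receptors, Gpr161 (1.13 ± 0.17), a receptor of primary cilia, Capn10 (1.14 ± 0.12), a calpain, Baiap3 (1.14 ± 0.34), Nudt12 (1.1 ± 0.13) and Rgs13 (1.13 ± 0.29) rose. The groups overlapped for Gprasp2, Capn10, Baiap3 and Rgs13. Baiap3 ran from 6.41 to 8.57 in R6/2 and from 5.50 to 7.20 in wild type. Rgs13 was at 6.15 in R6/2 replicate 4 and between 3.60 and 4.58 in the other R6/2 arrays, against 2.87 to 3.89 in wild type. All its values but that of R6/2 replicate 4 were below the median of all probe sets (5.76). Tnnt2, cardiac troponin T, rose by 1.09 ± 0.24, and Usp18, which removes the interferon-induced modifier ISG15, by 1.02 ± 0.21. Arhgef7 rose by 1.04 ± 0.14, but another probe set was called in the opposite direction and the call was lost when probe sets were averaged. Among called rises with more than 1 probe set, 62.1% had all probe sets in the same direction, against 80.7% of called falls and 56.9% of all genes with more than 1.

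Some chromatin regulator genes rose, and replication genes were called in both directions at shares near those of all genes. Of 29 histone deacetylase and chromatin regulator genes 9 rose (31.0% against 11.9% of all genes) and none fell (median 0.13). Besides Sfmbt2 they were Sap30 (0.64 ± 0.09) and Hdac1 (0.43 ± 0.1) and Hdac2 (0.28 ± 0.06), which share a deacetylase complex, the Polycomb genes Eed (0.44 ± 0.08) and Suz12 (0.28 ± 0.1), the deacetylase gene Sirt1 (0.61 ± 0.12), and the acetyltransferase genes Crebbp (0.34 ± 0.11) and Ep300 (0.26 ± 0.09). Sap30 ran from 8.03 to 8.27 (median 8.25) in R6/2 and from 7.29 to 7.82 (median 7.54) in wild type, without overlap. Of 28 DNA replication, repair and mitosis genes 4 rose (14.3% against 11.9% of all genes) and 3 fell (10.7% against 9.60%; median 0.02): Mcm6 (0.8 ± 0.14), a subunit of the replicative helicase, Brca1 (0.58 ± 0.17), Pcna (0.47 ± 0.16) and Atm (0.29 ± 0.09) rose, and the cyclin genes Ccna2 (-0.44 ± 0.11) and Ccnd2 (-0.47 ± 0.13) and the repair polymerase gene Polb (-0.26 ± 0.07) fell. Of 8 histone genes 2 rose, Macroh2a1 (0.36 ± 0.1) and H3f3b (0.33 ± 0.1), and 1 fell, H2ax (-0.24 ± 0.09, median of the list -0.01). The call of H2ax was lost without the pair of arrays that stood apart (limma adjusted p = 0.115). Rises made up 25% and the fall 12.5% of the histone list, against 11.9% and 9.60% of all genes.

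Proteasome genes had the largest share of rises among the 43 lists. Of 37 measured subunits 20 rose and 1 fell (54.1% higher against 11.9% of all genes; median 0.25), and the array mean ran between 9.94 and 10.17 in R6/2 and between 9.74 and 9.98 in wild type. The 20 included 6 of the alpha ring of the core, Psma1 to Psma5 and Psma7, as well as ATPase and lid subunits of the cap. Psma2 ran from 10.99 to 11.19 (median 11.09) in R6/2 and from 10.51 to 10.76 (median 10.68) in wild type and rose by 0.41 ± 0.05, and Psma5 (0.33 ± 0.05), Psma3 (0.31 ± 0.05) and Psmb5 (0.33 ± 0.06) also rose without overlap. The Psma3 call was lost when the probe sets of each gene were averaged (limma adjusted p = 0.339). Psme1, a subunit of the interferon-inducible activator, had the largest rise (0.7 ± 0.12), with levels from 8.97 to 9.95 (median 9.62) in R6/2 and from 8.64 to 9.25 (median 8.98) in wild type. R6/2 replicate 7 was the low array among them, at 8.97. The inducible core subunit genes Psmb8 (0.31 ± 0.1) and Psmb10 (0.64 ± 0.13) rose, and Psme4, an alternative activator, fell (-0.24 ± 0.06). On HSP990 23 of the 37 were higher in R6/2 and none lower, against 22.6% and 11% of all genes there.

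Chaperones rose modestly on vehicle: 15 of 45 heat shock and chaperone genes rose (33.3% against 11.9% of all genes) and none fell (median 0.15). On HSP990 7 of the 45 were higher in R6/2 and 9 lower (median 0.02). Of all genes 22.6% were higher and 11% lower there. The vehicle rises are given here. They included the chaperonin subunit genes Cct2 (0.36 ± 0.06), Cct4 (0.32 ± 0.11), Cct5 (0.27 ± 0.06) and Cct8 (0.59 ± 0.11), Hspa13 (0.53 ± 0.08), the co-chaperone genes Dnajb1 (0.48 ± 0.08), Dnajb6 (0.34 ± 0.07) and Fkbp4 (0.41 ± 0.09), and Hsp90aa1 (0.31 ± 0.07). Cct2 ran from 10.9 to 11.11 (median 11.02) in R6/2 and from 10.56 to 10.79 (median 10.61) in wild type, without overlap. Hspa1a, the inducible HSP70, ran from 6.01 to 7.82 (median 6.31) in R6/2 and from 5.27 to 6.71 (median 5.79) in wild type and rose by 0.63 ± 0.21 (adjusted p = 0.0271 by limma). R6/2 replicate 7 was its highest array, and without the pair of arrays the difference was 0.45 with adjusted p = 0.066 by limma, so the call was lost; its sequence is nearly identical to that of Hspa1b. Of 24 genes of the unfolded protein and integrated stress responses 4 rose (16.7% against 11.9% of all genes). Of the same genes 2 fell (8.33% against 9.60%), and the median was 0.06. Hspa5, the chaperone of the endoplasmic reticulum (0.42 ± 0.09), Manf (0.39 ± 0.09), Atf4 (0.42 ± 0.11) and Herpud1 (0.3 ± 0.1) rose, and Calr (-0.27 ± 0.1) and Trib3 (-0.25 ± 0.08) fell. The Herpud1 call was lost in 9 of 26 other settings and the Trib3 call in 9 of 25. On HSP990 3 of the 24 were higher in R6/2 and 6 lower, against 22.6% and 11% of all genes there. Of 22 autophagy and lysosome genes 2 rose, Ulk1 (0.41 ± 0.09) and Atg5 (0.35 ± 0.09), and 1 fell, Ctsb (-0.31 ± 0.11; median 0.09). Of 17 huntingtin partner genes 2 rose (11.8%), F8a (0.46 ± 0.09) and Crebbp, and 3 fell (17.6%), Rasd2, Pacsin1 (-0.43 ± 0.1) and Sh3gl3 (-0.25 ± 0.09, list median -0.05). Without the pair of arrays the calls of Calr (limma adjusted p = 0.058), Ctsb (0.144) and Sh3gl3 (0.106) were lost. In the antioxidant list 1 of 16 NRF2 target genes rose, Gsta4 (0.38 ± 0.12), and none fell (median 0.08); this share and that of the autophagy list (6.25% and 9.09% higher) are below the 11.9% of all genes.

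**Figure D4:**
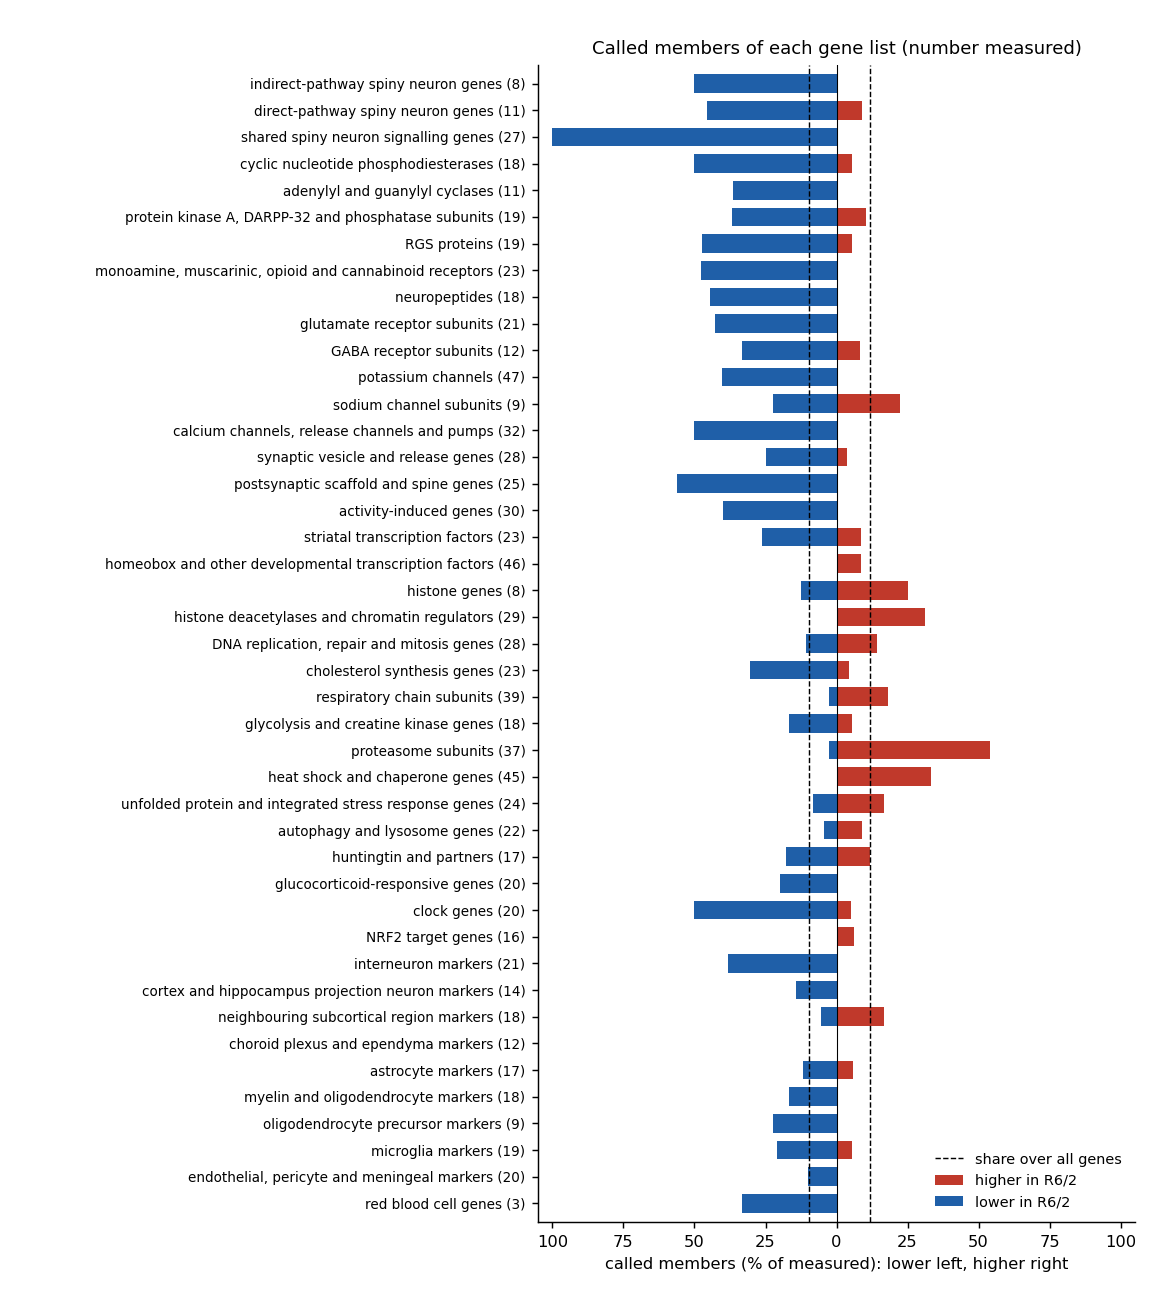
Share of the measured genes of each of 43 lists (number measured in brackets) called lower in R6/2, blue bars to the left, and higher, red bars to the right, on vehicle, in percent. Dashed lines are the shares over all genes, 9.60% lower and 11.9% higher; blue bars dominate the neuronal lists at the top and red bars the proteasome (54.1%), chaperone and chromatin lists.

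Metabolic lists moved by small amounts. Of 39 respiratory chain subunit genes 7 rose and 1 fell (median 0.08), for example Sdha (0.29 ± 0.07), Uqcrc2 (0.18 ± 0.05), Ndufa9 (0.22 ± 0.07) and Cyc1 (0.18 ± 0.06), and the one that fell was Sdhc (-0.33 ± 0.12). The count of rises ran from 2 to 15 over the other settings, and the call of Cyc1 was lost in 7 of 26. Rises made up 17.9% of this list, against 11.9% of all genes. Of 18 glycolysis and creatine kinase genes 3 fell (16.7% against 9.60% of all genes), Ckb (-0.4 ± 0.09), Ckmt1 (-0.38 ± 0.1) and Eno2 (-0.26 ± 0.07), and 1 rose, Pgam1 (0.24 ± 0.06, list median -0.09). Cholesterol synthesis and turnover genes fell in 7 of 23 cases and rose in 1 (median -0.14). Falls made up 30.4% and the rise 4.35%, against 9.60% and 11.9% of all genes. Cyp46a1, the neuronal enzyme that turns cholesterol into the form leaving the brain, ran from 9.65 to 10.62 (median 10.12) in R6/2 and from 10.89 to 11.46 (median 11.12) in wild type and fell by 1.02 ± 0.13, without overlap. Insig1 (-0.75 ± 0.15), Fdft1 (-0.63 ± 0.12), Dhcr7 (-0.54 ± 0.12) and Mvd (-0.42 ± 0.1) fell, and Abca1, a cholesterol exporter, rose (0.64 ± 0.16).

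Interneuron and microglia genes fell in part, and other glial and vascular lists held a few called genes each. Of 21 interneuron marker genes 8 fell (38.1%) and none rose (median -0.35). Slc18a3, the vesicular acetylcholine transporter (-0.7 ± 0.13), and Gbx1 (-0.57 ± 0.12) belong to cholinergic cells, and Sst, Npy and Nos1 (-0.7 ± 0.1) to another class. Th, the dopamine-synthesising enzyme, fell by 0.91 ± 0.14 with levels from 4.66 to 5.47 (median 5.04) in R6/2 and from 5.48 to 6.5 (median 5.88) in wild type, without overlap. Of 19 microglia genes 4 fell and 1 rose (median -0.16): C1qc (-0.86 ± 0.18), C1qb (-0.67 ± 0.15), Cd68 (-0.46 ± 0.13) and Aif1 (-0.4 ± 0.13) fell and Ctss (0.25 ± 0.07) rose. On HSP990 the differences of C1qc and C1qb were -0.07 and -0.02, and for neither did the difference between the treatments pass. Of 17 astrocyte genes 1 rose, Vim (0.5 ± 0.14), and 2 fell, Aldh1l1 (-0.36 ± 0.07) and Kcnj10 (-0.3 ± 0.1; median -0.07). Among 18 myelin genes 3 fell (median -0.10), Fa2h (-0.89 ± 0.19), Mal (-0.63 ± 0.21) and Mobp (-0.48 ± 0.15), and among 9 precursor genes 2 fell (median 0.01), Vcan (-0.37 ± 0.13) and C1ql1 (-0.19 ± 0.05). The call of Vcan was lost in 11 of 26 other settings and that of Mal in 7. Of 20 endothelial, pericyte and meningeal genes 2 fell (median -0.04), Tagln (-0.64 ± 0.08) and Esam (-0.26 ± 0.08), and of 3 red blood cell genes 1 fell, Alas2 (-0.89 ± 0.24; median -0.01). Without the pair of arrays that stood apart the calls of Aif1 (limma adjusted p = 0.0533), Kcnj10 (0.0579) and Esam (0.1) were lost. Falls made up 21.1% of the microglia, 11.8% of the astrocyte, 16.7% of the myelin, 22.2% of the precursor and 10% of the endothelial list. Over all genes the share was 9.60%.

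Markers of neighbouring tissue were called in few cases. Of 14 cortex and hippocampus markers 2 fell and none rose (median 0.04): Rspo1 (-1.53 ± 0.17), a secreted activator of Wnt signalling, and Lamp5 (-0.73 ± 0.09). Rspo1 ran from 4.11 to 5.18 (median 4.45) in R6/2 and from 5.68 to 6.29 (median 6.15) in wild type, without overlap. Of 18 markers of other subcortical regions 3 rose, Trpc4 (0.7 ± 0.13), Zic2 (0.4 ± 0.09) and Hcrt (0.24 ± 0.08). Calcr fell (-0.44 ± 0.15, list median -0.01). Falls made up 14.3% of the cortex and hippocampus list and 5.56% of the subcortical list, against 9.60% of all genes. Rises made up 16.7% of the subcortical list, against 11.9% of all genes. The call of Hcrt was lost without the pair of arrays that stood apart (limma adjusted p = 0.0508), and that of Calcr in 14 of 25 other settings. The array mean of the subcortical markers was highest in R6/2 replicate 7, at 5.74, followed by replicates 2 (5.47) and 4 (5.39). It was at most 5.26 in wild type. None of 12 choroid plexus and ependyma markers passed, although their median difference was -0.79, and single arrays differed widely. Clic6 (-0.95 ± 0.37), Aqp1 (-0.98 ± 0.47) and Ccdc153 (-0.6 ± 0.28) were those with the smallest p. Aqp1, for example, ran from 3.89 to 4.65 (median 3.96) in R6/2 and from 3.7 to 6.79 (median 4.83) in wild type. Their part in the other differences was not tested.

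Without the pair of arrays that stood apart, the list counts that moved by more than 1.5 times were small ones. Rises went from 4 to 7 in the replication list, from 2 to 4 in the protein kinase A and the autophagy lists, from 1 to 2 in the GABA receptor and the NRF2 lists, and from 0 to 1 among monoamine and related receptors, in the calcium list and among glucocorticoid-responsive genes. Falls went from 0 to 2 in the chaperone list, from 0 to 1 among chromatin regulators and among choroid plexus and ependyma markers, from 2 to 1 among astrocyte genes, and from 1 to 0 in the histone, respiratory chain and autophagy lists.

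The arrays of HSP990-treated mice share no array with the vehicle comparison and so give another reading of the signature, though both comparisons use 1 estimate of each gene's spread. There 6108 genes (33.6%) were called, 4110 higher (22.6%) and 1998 lower (11%) in R6/2. Of the 2160 genes that rose on vehicle, 1769 (81.9%) were also called higher on HSP990, and of the 1746 that fell, 1180 (67.6%) were also called lower; 43.0% of the HSP990 rises and 59.1% of the HSP990 falls were called on vehicle. Among genes changed at least 2-fold on vehicle, 165 of 170 falls and 23 of 24 rises were called in the same direction. Opposite calls were made for 3 rises and 6 falls. A direct test of the difference between both genotype effects called 45 genes (0.247%), 23 of them among the vehicle calls. Mknk2, a kinase that acts on translation initiation, was lower in R6/2 on vehicle (-0.39) and higher on HSP990 (0.2), and Hspa1a and Hspd1 were higher on vehicle (0.63 and 0.28) and lower on HSP990 (-0.98 and -0.39). For Sap30 (0.64 and 1.38), Stil, a centriole gene (0.39 and 1.23), and Fbxo28 (0.36 and 0.96) the rise was larger on HSP990. For Kcns2 (-0.29 and -1.03) and Rnf144a (-0.63 and -1.17) the fall was larger there, and for Hr (-0.82 and -0.18) and Tpst2 (-0.61 and -0.06) it was smaller.

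By chromosome, rises were unevenly spread, a pattern that was singled out after the values were seen and therefore carries no test. Of 617 measured genes on the X chromosome 140 rose (22.7%) and 6.81% fell, while on the 19 autosomes the share of rises ran between 8.56% and 15.9% and the share of falls between 8.00% and 11.5%. The higher share was found in each of 4 equal bins of mean level: from the lowest bin to the highest, 2.65%, 17.2%, 35% and 39.3% of X-linked genes rose, against 0.842%, 7.54%, 17.3% and 20.2% of autosomal genes. Without the pair of arrays that stood apart, 25.6% of X-linked and 13% of autosomal genes rose. On HSP990, 29.5% of X-linked genes were higher in R6/2, against 17.5% to 25.8% on single autosomes. All mice were male by the labels. The largest X-linked rises after Pcdh19 and Gprasp2 were Tbc1d8b (0.97 ± 0.15), Trmt2b (0.91 ± 0.13), the kinase gene Rps6ka6 (0.81 ± 0.16), the nucleosome-binding gene Hmgn5 (0.8 ± 0.11), the cation channel gene Trpc5 (0.78 ± 0.24) and Nexmif (0.76 ± 0.11). Nexmif, a neuronal gene tied to intellectual disability, ran from 9.36 to 9.99 (median 9.74) in R6/2 and from 8.6 to 9.17 (median 8.99) in wild type, without overlap. Rab9b (0.75 ± 0.09) and Tspan6 (0.71 ± 0.11) also rose without overlap.

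**Figure D5:**
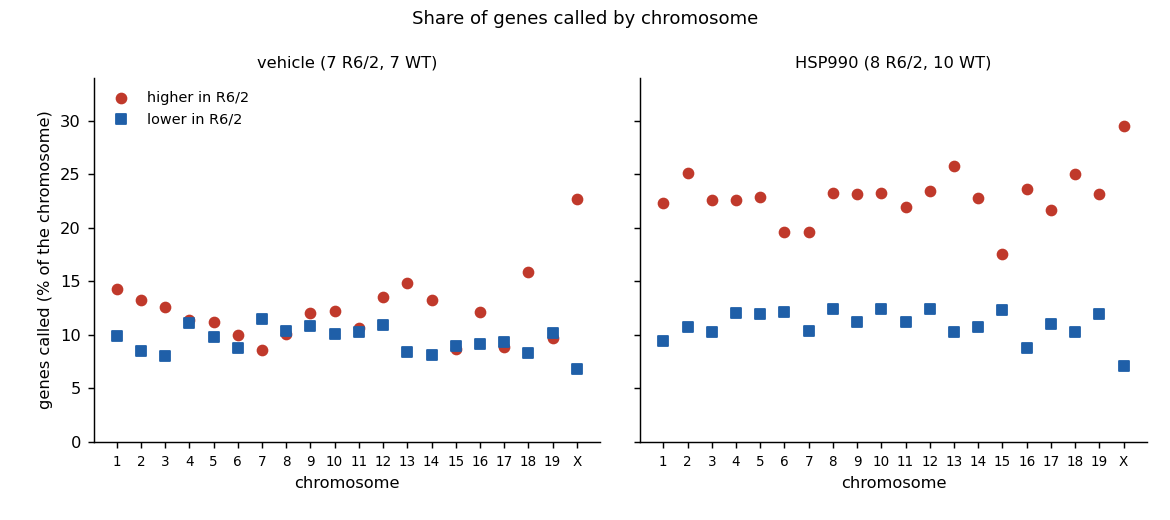
Percent of the measured genes of each chromosome (horizontal) called higher (red circles) or lower (blue squares) in R6/2, on vehicle at left (7 R6/2 and 7 wild-type arrays) and on HSP990 at right (8 and 10). The X chromosome has the highest share of rises in both panels, 22.7% and 29.5%.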

How the data were processed

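Striatal RNA of 32 mice was hybridised to Affymetrix mouse arrays after labelling by in vitro transcription, per the labels' protocols, so signal depends on RNA integrity. The values deposited by the authors run from 2.15 to 14.7, which marks them as log2 levels, and array medians of 5.73 to 5.78 show that the arrays had been scaled to each other before deposit, by a method not given in the sources used here. Of 45101 probe sets, 34945 had 1 gene symbol in the platform's probe list, 932 several and 9160 none; 64 controls served for quality alone. For each of 18193 genes the probe set of highest mean over all arrays was used (9010 genes had more than 1). No filter on low values was applied.

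A model of the 4 group means of genotype and treatment was fitted to all 32 arrays with limma (version 3.58.1) under R version 4.3.3, with tables read by the R package data.table (version 1.17.8), so the 4 groups share 1 estimate of each gene's spread. Tests are moderated and two-sided, the Benjamini-Hochberg adjustment ran over all genes, and a call is an adjusted p under 0.05. The fit was tested on simulated data. The number of arrays limits the precision.

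The members and the 43 gene lists (960 distinct genes, 877 measured, 5 matched through an older symbol) were chosen with earlier results of these data known, and some listed genes are not reported here. Named genes are the 20 called genes that rose most and the 20 that fell most, passing over symbols that are only clone or predicted names; up to 6 called members of each list by smallest p (up to 3 where none was called); Htt; all members of both spiny-neuron pathway lists; and the 10 called genes with the smallest p for the difference between treatments. Members named beyond this rule, where lists held few calls or to complete a family, were chosen after their values were seen. Promoter sequences are from RefSeq (GRCm38.p6), with windows for 14452 of the measured genes. Alternatives were other scalings, probe-set rules, variance models, array weights, 3' bias, the vehicle arrays alone, the replicate number as a block and each array left out, with others added after the data were seen: the removal of 2 arrays that stood apart, and the chromosome and family counts.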

Additional observations from a re-analysis of the deposited data

Results flagged for a closer look

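Each named gene was checked in both vehicle groups for an array that lay far from the other 6 relative to the range of its group. Of 488 such groups of values 47 held one, and the 3' bias of the arrays 1 more; chance gives about 1 in 20. R6/2 replicate 7 accounted for 17 and wild-type replicate 4 for 11.

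R6/2 replicate 7 was highest for Abi3bp (4.87), Ryr1 (7.63), Phex (5.15), Ddit4l (8.14), Wnt8b (5.53), Egr2 (6.85), Pcdh20 (9.73), Adcy9 (10.19), Gabra5 (10.00), Itpka (10.82), Mcm6 (7.82) and Hspa1a (7.82) and lowest for Sfmbt2 (5.50), Cks1b (7.02), Capn10 (6.96), Atad2b (8.71) and Psme1 (8.97). Wild-type replicate 4 was highest for Rgs13 (3.89) and Adcy9 (10.25) and lowest for Sdr39u1 (9.10), Drd2 (10.23), Kcnip2 (10.73), Ptpn5 (10.91), Rgs7bp (11.36), Adra2c (8.33), Gabrd (9.62), Kcnt1 (8.92) and Actn2 (8.94).

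Among the other R6/2 arrays, replicate 1 was highest for Htt (9.01) and lowest for Ckmt1 (9.41), Manf (9.24) and Rnf144a (7.73), and it had the highest 3' bias of its group (2.11). R6/2 replicate 2 was highest for Calcr (3.71) and lowest for Npy (9.43), replicate 4 was highest for Rgs13 (6.15) and lowest for Pdyn (6.40), Ryr3 (8.83), Klf9 (12.44) and Clic6 (6.26), and replicate 6 was highest for Aqp1 (4.65). In wild type, replicate 2 was highest for Slc18a3 (5.99), replicate 6 was highest for Npy (11.08) and lowest for Kcnip3 (7.61) and Insig1 (8.03), and replicate 7 was highest for Arpp19 (13.02) and lowest for Mcm6 (5.71) and Tagln (6.82).

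The genotype difference on HSP990 minus that on vehicle, on the log2 scale, passed the limma test for 10 of the named genes. It was 0.74 for Sap30, 0.60 for Mknk2, -0.74 for Kcns2, -1.61 for Hspa1a, -0.67 for Hspd1, 0.64 for Hr, 0.60 for Fbxo28, 0.83 for Stil, -0.54 for Rnf144a and 0.55 for Tpst2. The adjusted p ranged from 0.0014 to 0.0194 over these genes.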

How the results depend on the processing

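With 1 other choice at a time, 26 alternatives were run. The counts of 2160 rises and 1746 falls became 1213 and 1116 at an adjusted p under 0.01, and 278 and 429 when the groups also had to be free of overlap. Leaving out single arrays gave 1738 to 2463 rises and 1505 to 1916 falls, 19 to 35 rises of at least 2-fold and 156 to 194 falls of at least 2-fold. The 24 rises of at least 2-fold became 14 with the mean of a gene's probe sets, 44 with array weights and 38 without the pair of arrays that stood apart. The 14 vehicle arrays alone gave 1448 rises and 1313 falls. The 45 genes with a difference between treatments became 16 with 3' bias as a covariate, 80 with the mean of probe sets and 23 with the replicate number as a block. Same-numbered vehicle arrays correlated between -0.16 and 0.25 over genes, and only number 2 had its own number as best partner, so the numbers were not taken as pairs; the replicate block gave 2060 rises and 1722 falls. Of 231 named genes that passed, 180 passed in every setting, and the 14 arrays alone lost 30 calls and the mean of probe sets 20. Besides Adcy3, Gucy1b1 and Arhgef7, the mean of probe sets ended the calls of Psma3, Fkbp4, Dnajb6, Pax6, Polb, Ckmt1, Gabrg3 and Gabbr1. It also ended those of Scn2b, Eed, Sdha, Atg5, Sfxn1, Herpud1, Ctsb, Cacna1e and Atp5c1. The sign of Atp5g1 turned under the mean of probe sets (-0.024 against 0.3); the cause was not tested. No list changed the direction in which more members were called under quantile normalization or median centring. Called genes below the median level (164 rises and 315 falls) are limited by signal over background, where differences are compressed.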

Other observations

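Outside the lists, several gene families defined by their symbols after the values were seen held more calls in 1 direction than in the other on vehicle, though most members of each did not pass; they are described without a test. Of 25 RNA polymerase subunit genes 12 rose and none fell (48% against 11.9% of all genes), with members of all 3 polymerases among them: Polr1a (0.37 ± 0.11), Polr2a (0.64 ± 0.17) and Polr3a (0.4 ± 0.12). Of 48 genes with symbols of cytosolic ribosomal proteins (Rpl or Rps) 16 rose (33.3%) and none fell, such as Rpl7 (0.33 ± 0.07) and Rps9 (0.35 ± 0.11). The symbols also take in pseudogenes and related genes, and Rps15a-ps6, Rps4l, Rpl7l1 and Rpl22l1 are among the 16. Of 76 mitochondrial ribosomal genes 17 rose (22.4%) and none fell, led by Mrps22 (0.54 ± 0.06), whose groups did not overlap. Ribosomal genes have many near-identical copies, which probe sets may not separate. Of 336 zinc finger genes named Zfp, most of them putative DNA-binding regulators, 75 rose (22.3%) and 18 fell (5.36%), with Zfp647 (0.92 ± 0.12) and Zfp658 (0.83 ± 0.11) free of overlap. On HSP990, in other arrays, 68% of the polymerase genes, 25% of the cytosolic ribosomal, 42.1% of the mitochondrial ribosomal and 42.3% of the Zfp genes were higher in R6/2, against 22.6% of all genes.

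Of 35 protocadherin genes 9 rose and none fell; after Pcdh20 and Pcdh19 came members of the beta cluster such as Pcdhb9 (0.69 ± 0.13) and Pcdhb12 (0.61 ± 0.15), which are close in sequence and may share signal. Of 16 genes named as carbonic anhydrases 5 fell and none rose: besides Car12 there were Car11 (-1.13 ± 0.17, without overlap), Car7 (-0.78 ± 0.17), Car9 (-0.44 ± 0.13) and Car15. Of 16 Kruppel-like factor genes 5 fell, Klf10 (-0.76 ± 0.23), Klf9 (-0.57 ± 0.08), Klf16 (-0.5 ± 0.17), Klf2 (-0.33 ± 0.12) and Klf13. Klf12 rose (0.52 ± 0.08). Falls made up 31.25% of the carbonic anhydrase and of the Kruppel-like family, against 9.60% of all genes. Rises made up 25.7% of the protocadherin and 6.25% of the Kruppel-like family, against 11.9%. Without R6/2 replicate 7 and wild-type replicate 4 the call of Klf2 was lost (limma adjusted p = 0.0618). The direction in which more members of each family were called was the same under quantile normalization and median centring.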
